A study of Mus musculus with 10 samples.

Results

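The genes described here encode isozymes of glycolysis, alternative forms of one enzyme made from different genes, in the developing mouse neocortex. They were taken from a list of 10 symbols (Hk1, Pfkp, Pfkl, Pfkm, Aldoa, Eno1, Eno2, Pkm, Ldha and Ldhb) by the gene name in the deposited expression table. Of these, 9 had a row among the 6147 genes of the table, and Aldoa was not analysed here. Their means over the libraries all reached 1 TPM, the minimum for testing, as did those of 6048 genes in all. TPM is the read abundance of a gene per unit of its length, as a share of a total that is equal for all libraries, so levels of different genes were compared on this per-length scale.

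The samples were neocortex, the layered outer part of the forebrain, from wild-type mice of the outbred CD1 strain. The groups were embryos at gestational days E12.5, E14, E15.5 or E17, and pups at birth (P0). Each stage had 2 libraries of polyadenylated RNA from detergent lysates of frozen tissue, 10 in all, and the series calls them biological duplicates. All groups were wild type, and no treatment is labelled. The tissue is a mixture of cell types, so fewer cells of a type and less RNA per cell cannot be told apart.

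Glycolysis converts glucose to pyruvate in the cytosol, and lactate dehydrogenase interconverts pyruvate and lactate. Several steps have more than 1 isozyme, and tissues differ in which they use. Proliferating cells are known for abundant Hk2, Pkm and Ldha transcripts and for making lactate in the presence of oxygen. Neurons are known for Hk1, for the gamma enolase encoded by Eno2 (neuron-specific enolase) and for feeding pyruvate to mitochondria.

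From E12.5 to P0 the isozymes moved in opposite directions within the same pathway. Hk1, Pfkm, Pfkp and Eno2 rose, and Pfkl, Eno1, Pkm, Ldha and Ldhb fell. Each was called, with an adjusted p under 0.05, in limma, which fits 1 mean per stage and moderates the spread of each gene by that of all genes. That is 4 of 9 higher, where 27.1% of all genes tested were called higher, and 5 of 9 lower, where 51.0% were called lower. The median change was -0.50 on the log2(TPM + 1) scale for the isozymes and -0.27 for all genes tested. Median-of-ratios scaling moved the latter to -0.01 and kept the 9 directions and calls, with Ldhb at -0.23. In 9 of 9 isozymes the P0 and E12.5 libraries did not overlap, as in 90.9% of all genes tested. Summed over the 9 genes, the isozymes held 0.213% ± 0.0129 of total TPM in the E12.5 libraries (SD, n = 2), 0.129% ± 0.000047 in those of E15.5 and 0.112% ± 0.00110 in those of P0. In the moderated F test over the 5 stages 9 of 9 were called, against 82.9% of all genes.

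**Figure D1:**
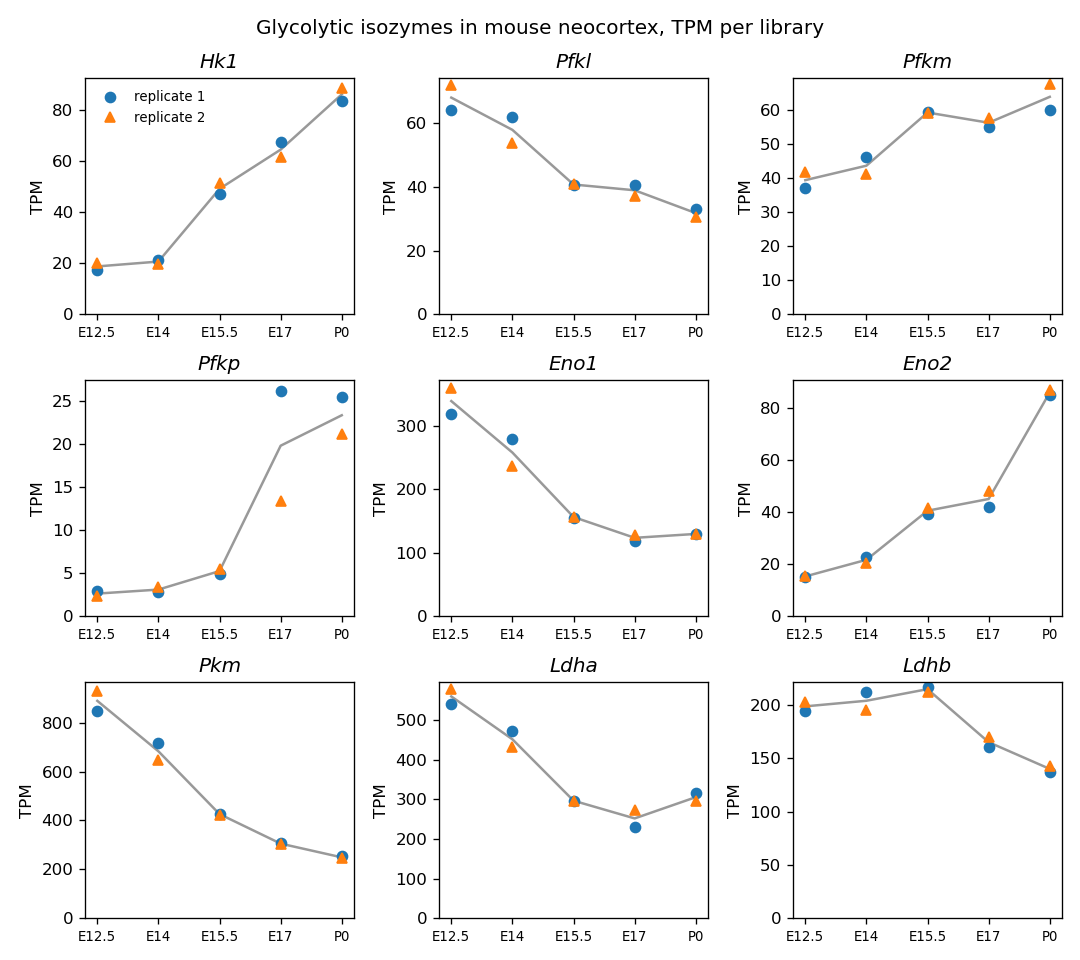
TPM of the 9 isozyme genes (vertical axes, linear from 0) in each library by stage (horizontal axes); circles are replicate 1, triangles replicate 2, and lines join the stage means (n = 2). Hk1, Pfkm, Pfkp and Eno2 end higher than they start, Pfkl, Eno1, Pkm, Ldha and Ldhb end lower, and the E17 libraries lie far apart for Pfkp (26.2 and 13.4 TPM).

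Libraries were first checked against markers. Replicates were least alike at E17, where their log2 values differed with an SD over genes of 0.285, against 0.088 to 0.176 elsewhere. Neuronal genes (10 of 10 in the table, Snap25 and Syn1 among them) summed to 1008 to 1085 TPM at E12.5 and 3878 to 4093 TPM at P0. Proliferation genes (11 of 12) fell from between 1438 and 1503 TPM at E12.5 to between 171 and 174 TPM at P0. Markers of tissue outside the neocortex were high only in the E12.5 and E14 libraries. Erythroid genes (3 of 11) summed to 1880 to 4494 TPM there and 2.04 to 9.84 TPM in the 6 later libraries, with Hbb-bh1 listed at 0 at P0. Hbb-y made up most of the erythroid sum, with 4348.7 of 4408.6 TPM at E12.5 and 1907.2 of 1927.8 TPM at E14 (stage means). The erythroid sum therefore mainly follows Hbb-y, and whether the amount of blood differed between stages was not tested. Meningeal genes (5 of 5) summed to 106 to 173 TPM in the E12.5 and E14 libraries and 2.22 to 6.63 TPM later. Choroid plexus genes (2 of 6) summed to 303 to 1517 TPM and then 3.07 to 5.26 TPM. Vascular genes (2 of 8, Col4a1 and Col4a2) summed to 35.5 to 65.3 TPM and then 6.16 to 18.8 TPM. Vessels are part of the neocortex, and both vascular genes were called higher from E15.5 to E17 in limma. The part of these tissues and cell types in the changes of the isozymes was not tested. A comparison of P0 with E15.5 alone, chosen after seeing the data and without the E12.5 and E14 libraries, is given where it changed a call, and for the isozymes. It called 3 of 9 isozymes higher and 4 of 9 lower, where 15.6% and 23.8% of the 6018 genes tested were called.

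**Figure D2:**
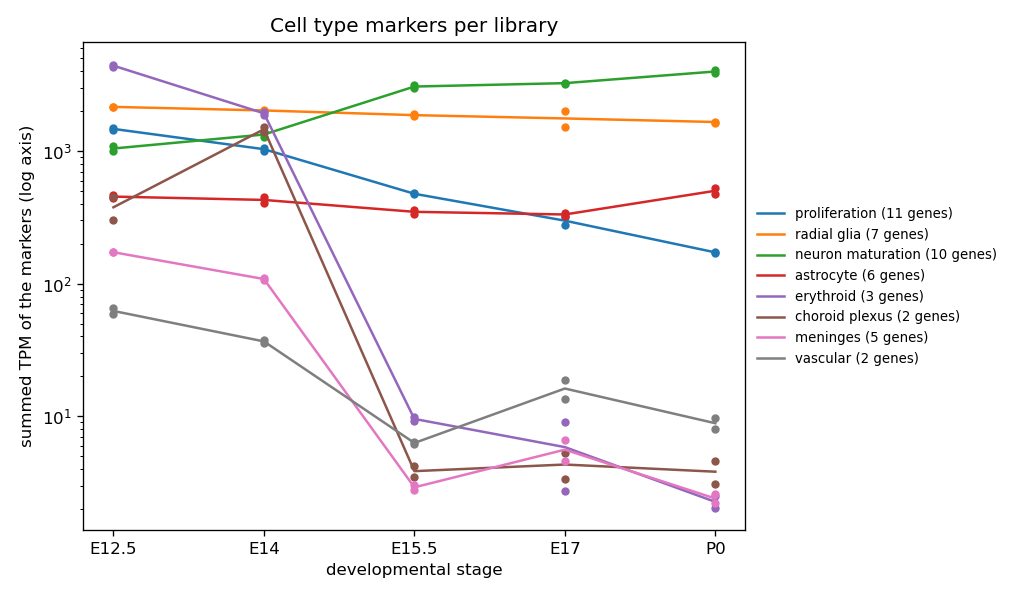
Summed TPM of marker genes (vertical axis, logarithmic) by stage, 1 point per library, with lines through the stage means; numbers in the key are the marker genes in the table. Neuronal markers rise and proliferation markers fall over the 5 stages, and erythroid, choroid plexus and meningeal markers drop between E14 and E15.5.

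Hexokinase 1, which phosphorylates glucose at the entry to glycolysis and can bind the outer mitochondrial membrane, rose over the period, with its largest step between E14 and E15.5. Hk1 lies at chr10:62268855-62379908 on the reverse strand (GRCm38). It stood at 17.3 and 20.3 TPM at E12.5, 21.5 and 19.9 TPM at E14, 47.0 and 51.4 TPM at E15.5, 67.6 and 61.6 TPM at E17, and 83.6 and 88.9 TPM at P0. The E12.5 and E14 libraries overlapped, and from E14 on every stage lay above the one before. The change from E14 to E15.5 was 1.21 (SE 0.10, adjusted p 2.92e-06 in limma). From E12.5 to P0 the mean was 4.59-fold higher, a change of 2.14 (SE 0.10, adjusted p 3.74e-09), and from E15.5 to P0 the change was 0.80 (adjusted p 0.000447). Hexokinase 2, the form abundant in many dividing cells, went the other way. Hk2 stood at 20.1 and 20.2 TPM at E12.5 and at 1.33 and 0.978 TPM at P0 (-3.30, SE 0.14, adjusted p 1.5e-09), so at E12.5 it lay within the range of the Hk1 libraries and at P0 below them.

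Phosphofructokinase catalyses the first step committed to glycolysis, as tetramers of liver (Pfkl), muscle (Pfkm) and platelet (Pfkp) type subunits. The summed TPM of the 3 genes varied little over the stages, with 110.1 ± 8.48 TPM for E12.5, 104.7 ± 8.81 TPM for E14, 105.4 ± 0.436 TPM for E15.5, 115.1 ± 9.64 TPM for E17 and 119.1 ± 0.519 TPM for P0 (SD, n = 2 each). Their shares of that sum changed. Pfkl made up 61.7% ± 0.326 at E12.5, 38.6% ± 0.238 at E15.5 and 26.7% ± 1.72 at P0. Pfkm made up 35.9% ± 0.230, 56.4% ± 0.598 and 53.8% ± 4.39 at these stages, and Pfkp 2.42% ± 0.556, 4.98% ± 0.360 and 19.6% ± 2.66. The leading subunit transcript was therefore Pfkl at E12.5 and E14, and Pfkm from E15.5 on.

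Pfkl (chr10:77986947-78010083, reverse strand) stood at 64.0 and 71.9 TPM at E12.5, 61.9 and 53.8 TPM at E14, 40.4 and 41.0 TPM at E15.5, 40.7 and 37.2 TPM at E17, and 33.1 and 30.4 TPM at P0. E14 lay below E12.5 and E15.5 below E14, the E15.5 and E17 libraries overlapped, and P0 lay below E17. The mean was 2.14-fold lower at P0 than at E12.5 (-1.07, SE 0.10, adjusted p 1.3e-06 in limma), and the step from E14 to E15.5 was -0.49 (adjusted p 0.00167). From E15.5 to P0 Pfkl changed by -0.35 (adjusted p 0.0341 in limma). Pfkm (chr15:98092589-98132451, forward strand) stood at 37.2 and 41.8 TPM at E12.5, 46.2 and 41.3 TPM at E14, 59.7 and 59.1 TPM at E15.5, 55.1 and 57.7 TPM at E17, and 60.1 and 67.9 TPM at P0. The 4 earlier libraries all lay below the 6 later ones. Its rise of 0.68 (SE 0.10, adjusted p 4.58e-05; 1.62-fold) came with a step of 0.43 from E14 to E15.5 (adjusted p 0.00295), and from E15.5 to P0 it was not called (0.10, adjusted p 0.454).

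Pfkp (chr13:6579768-6648777, reverse strand) was the lowest of the 9 genes at each stage and had the largest relative rise. It stood at 2.92 and 2.35 TPM at E12.5, 2.83 and 3.37 TPM at E14, 4.96 and 5.53 TPM at E15.5, 26.2 and 13.4 TPM at E17, and 25.5 and 21.1 TPM at P0. The E17 and P0 libraries overlapped and lay above all 6 others, with E17 replicate 1 the highest of all 10 and E17 replicate 2 the lowest of these 4. The mean was 8.84-fold higher at P0 than at E12.5 (2.74, SE 0.23, adjusted p 5.89e-07 in limma), and the step from E15.5 to E17 was 1.66 (SE 0.23, adjusted p 0.00085). Leaving out E17 replicate 1 gave 1.21 for that step and leaving out E17 replicate 2 gave 2.12, each called. It lost its call when the fit held no library of another stage (adjusted p 0.0582). From E15.5 to P0 Pfkp changed by 1.96 (adjusted p 0.000446 in limma). The change from E17 to P0 was not called (0.29, adjusted p 0.337). It was called without E17 replicate 1 (0.75, adjusted p 0.000354) and was -0.17 without E17 replicate 2 (adjusted p 0.298). Pfkp overlaps Pitrm1 on the opposite strand, whose level was 27.9 and 29.4 TPM at E12.5 and 15.2 and 15.7 TPM at P0, opposite in direction to that of Pfkp. Pfkm likewise overlaps Senp1, at 46.9 and 48.8 TPM at E12.5 and 22.2 and 22.5 TPM at P0. The library kit keeps strand, but whether the counting used it is not stated.

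**Figure D3:**
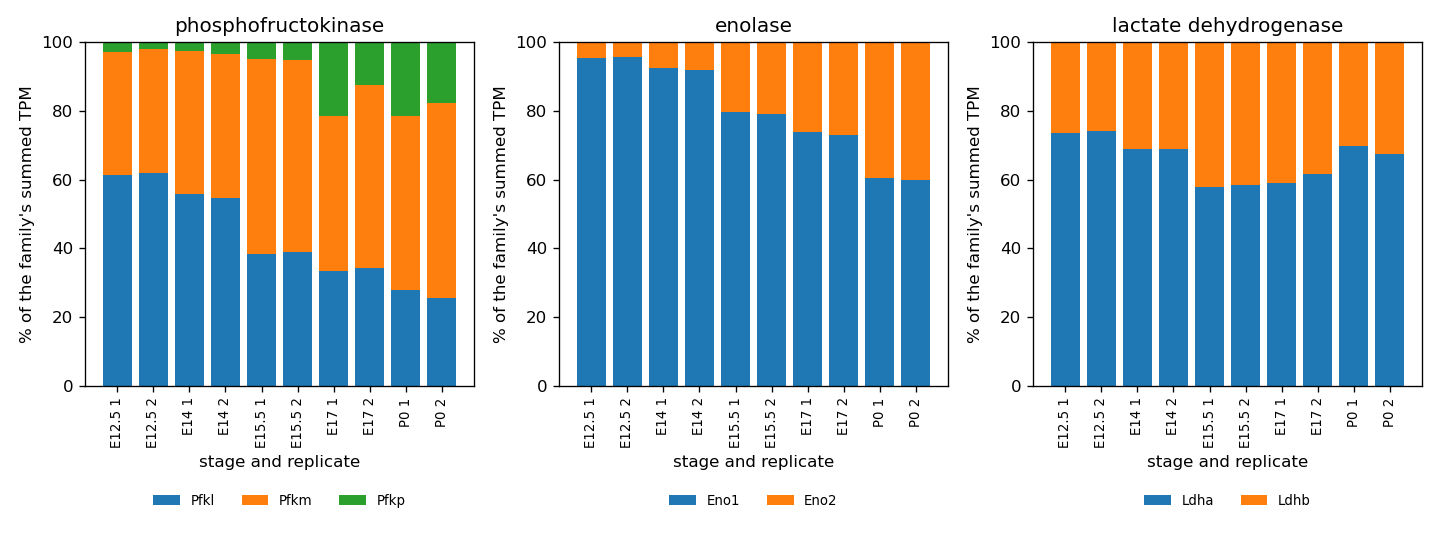
Share of each subunit or isozyme gene in the summed TPM of its family (vertical axes, %), 1 bar per library. Pfkl gives way to Pfkm and Pfkp, the Eno2 share climbs at each stage from 4.33% to 39.8% (stage means), and the Ldhb share is highest at E15.5 (42.0%).

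Enolase makes phosphoenolpyruvate, and its alpha form (Eno1) is found in most cells while its gamma form (Eno2) is a marker of neurons. Eno1 (chr4:150236721-150248879, forward strand) stood at 319 and 359.9 TPM at E12.5, 279 and 237 TPM at E14, 156 and 157 TPM at E15.5, 119 and 129 TPM at E17, and 130.1 and 129.7 TPM at P0. Each stage lay below the one before up to E17, and the P0 libraries lay just above the E17 ones. The mean was 2.61-fold lower at P0 than at E12.5 (-1.38, SE 0.09, adjusted p 7.77e-08 in limma), with the largest step from E14 to E15.5 (-0.71, adjusted p 7.04e-05). From E15.5 to P0 the change was -0.27 (adjusted p 0.0434). Eno1 has a near-identical copy in the mouse genome, Eno1b, which was not analysed here, so reads of Eno1 may have been split by the counting.

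Eno2 (chr6:124760053-124769673, reverse strand) stood at 15.1 and 15.6 TPM at E12.5, 22.8 and 20.6 TPM at E14, 39.4 and 41.7 TPM at E15.5, 42.1 and 47.9 TPM at E17, and 84.9 and 86.9 TPM at P0. No stages overlapped, and each lay above the one before. The mean was 5.61-fold higher at P0 than at E12.5 (2.41, SE 0.10, adjusted p 8.2e-10 in limma). The rise came in steps of 0.87 from E14 to E15.5 (adjusted p 1.87e-05) and 0.92 from E17 to P0 (adjusted p 4.76e-05), while the value from E15.5 to E17 (0.15, adjusted p 0.285) was not called. From E15.5 to P0 the change was 1.07 (adjusted p 1e-04). The summed TPM of both genes fell from 354.7 ± 29.4 at E12.5 to 168.8 ± 11.5 at E17 and stood at 215.9 ± 1.16 at P0.

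The ratio of Eno2 to Eno1 was 0.0473 and 0.0432 in the E12.5 libraries, 0.0815 and 0.0870 at E14, 0.253 and 0.265 at E15.5, 0.355 and 0.372 at E17, and 0.652 and 0.670 at P0. Both libraries of each stage exceeded both of the stage before. At E12.5 there were 22.1 Eno1 transcripts per Eno2 transcript and at P0 1.51, per length, so Eno1 remained the more abundant in all 10 libraries. The ratio was 14.6-fold higher at P0 than at E12.5 (3.87 on the log2 scale). The F statistic over the stages was tested by exact permutation, with all 945 arrangements of the 10 libraries as 5 pairs, which gave p = 0.00106, the smallest it can give, and 0.00265 after adjustment over the 5 isozyme ratios tested. For 2 libraries against 2 the smallest exact permutation p is 0.333.

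Because the enolase genes moved in opposite ways, their start regions are shown. The windows run from 250 bases before to 50 bases after the first start listed by RefSeq (GRCm38.p6), for Eno1 at chr4:150236458-150236757, forward strand, and for Eno2 at chr6:124769624-124769923, reverse strand. They are printed 5′ to 3′ in lower case, with capitals for ACGTG or its reverse complement CACGT, the core letters of the element bound by hypoxia-inducible factors. Neither window holds these letters, so neither has capitals. Further windows listed for Eno1, at chr4:150236947-150237246 and chr4:150236974-150237273, are not shown and hold 0 matches.
Eno1: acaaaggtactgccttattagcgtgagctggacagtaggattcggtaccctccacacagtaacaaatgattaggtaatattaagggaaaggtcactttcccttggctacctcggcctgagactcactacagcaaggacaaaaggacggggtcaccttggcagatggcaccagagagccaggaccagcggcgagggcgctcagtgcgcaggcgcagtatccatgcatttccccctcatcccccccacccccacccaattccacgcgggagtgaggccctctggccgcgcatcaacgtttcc
Eno2: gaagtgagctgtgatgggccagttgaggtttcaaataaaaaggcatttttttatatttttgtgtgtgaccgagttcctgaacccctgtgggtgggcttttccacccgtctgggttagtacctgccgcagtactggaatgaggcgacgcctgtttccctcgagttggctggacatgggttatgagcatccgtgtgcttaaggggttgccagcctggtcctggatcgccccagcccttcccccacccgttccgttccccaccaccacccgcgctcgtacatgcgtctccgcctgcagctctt

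Pyruvate kinase makes pyruvate and ATP in the last step of glycolysis, and Pkm encodes its M1 and M2 forms through a choice between alternative exons. Pkm (chr9:59656368-59679375, forward strand) stood at 848 and 929.9 TPM at E12.5, 717 and 648 TPM at E14, 428 and 424 TPM at E15.5, 307 and 304 TPM at E17, and 253 and 245 TPM at P0. No stages overlapped, and each lay below the one before. The mean was 3.57-fold lower at P0 than at E12.5 (-1.83, SE 0.08, adjusted p 1.79e-09 in limma), the largest fall among the 9 genes. The step from E14 to E15.5 was -0.68 (adjusted p 3.23e-05), and from E15.5 to P0 the change was -0.77 (adjusted p 2e-04). Pkm had the highest TPM of the isozymes at all stages but P0, where Ldha did. Values per gene do not separate the M1 and M2 forms.

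Of 5 splicing factors known to act on the alternative exons of Pkm, 4 were in the table. All 4 were called lower from E12.5 to P0, with a median of -1.14. In that comparison 51.0% of all genes tested were called lower, and the median of all genes was -0.27. Ptbp1, which favours the M2 form, fell from between 209 and 231 TPM to between 30.9 and 33.6 TPM (-2.73, SE 0.13, adjusted p 3.34e-09 in limma). Hnrnpa2b1 (-1.32), Ptbp2 (-0.95) and Hnrnpa1 (-0.90) were also lower, with adjusted p of 1.77e-05 or less. All 4 were also called lower from E15.5 to P0, where 23.8% of genes tested were, with Ptbp1 at -1.21 (adjusted p 0.000294 in limma).

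Lactate dehydrogenase works as a tetramer of A (Ldha) and B (Ldhb) subunits; the A form is known for turning pyruvate to lactate, and the B form prevails in tissues that take up lactate. Ldha (chr7:46841475-46855627, forward strand) stood at 542 and 578 TPM at E12.5, 472 and 432 TPM at E14, 297 and 297 TPM at E15.5, 231 and 273 TPM at E17, and 316 and 296 TPM at P0. The level fell up to E15.5, the E17 libraries lay below those of E15.5, and at P0 one library lay above and one just below the E15.5 pair. The mean was 1.83-fold lower at P0 than at E12.5 (-0.87, SE 0.09, adjusted p 3.61e-06 in limma), and the step from E14 to E15.5 was -0.60 (adjusted p 0.000216). From E15.5 to P0 the value was 0.04 (adjusted p 0.785).

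Ldhb (chr6:142490249-142507957, reverse strand) kept its level longer. It stood at 194 and 203 TPM at E12.5, 212 and 195 TPM at E14, 217 and 212 TPM at E15.5, 160.2 and 169.7 TPM at E17, and 137 and 142 TPM at P0. Among the first 3 stages neighbours overlapped, and E17 lay below all 6 of them and P0 below E17. The mean was 1.42-fold lower at P0 than at E12.5 (-0.50, SE 0.07, adjusted p 6.22e-05 in limma), and from E15.5 to P0 the change was -0.61 (adjusted p 0.000762).

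The ratio of Ldhb to Ldha rose and then fell. It was 0.359 and 0.350 at E12.5, 0.450 and 0.452 at E14, 0.731 and 0.714 at E15.5, 0.693 and 0.621 at E17, and 0.435 and 0.481 at P0. The E15.5 libraries were above all others and the P0 libraries lay on either side of the E14 pair. The exact permutation test over the 5 stages gave p = 0.00317 (adjusted 0.00397). The summed TPM of both genes was 758.7 ± 31.3 TPM for E12.5, 511.6 ± 2.86 TPM for E15.5, 417 ± 36.5 TPM for E17 and 445.8 ± 10.3 TPM for P0.

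The start regions of this pair are shown because they differ in the same letters. The Ldha window lies at chr7:46845554-46845853, forward strand, and the Ldhb window at chr6:142507908-142508207, reverse strand, with the same layout, build and capitals as for enolase. The Ldha window shown holds 5 matches on the 2 strands, where CACGTG counts once on each strand, and the Ldhb window none. A second window listed for Ldha, at chr7:46846832-46847131, holds 0 matches.
Ldha: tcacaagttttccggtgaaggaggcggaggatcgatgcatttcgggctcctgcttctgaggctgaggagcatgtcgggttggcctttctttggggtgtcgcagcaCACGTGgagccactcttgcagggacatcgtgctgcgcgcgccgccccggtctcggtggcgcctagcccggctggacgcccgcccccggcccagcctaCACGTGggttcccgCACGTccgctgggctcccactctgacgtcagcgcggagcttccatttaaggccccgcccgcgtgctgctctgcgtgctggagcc
Ldhb: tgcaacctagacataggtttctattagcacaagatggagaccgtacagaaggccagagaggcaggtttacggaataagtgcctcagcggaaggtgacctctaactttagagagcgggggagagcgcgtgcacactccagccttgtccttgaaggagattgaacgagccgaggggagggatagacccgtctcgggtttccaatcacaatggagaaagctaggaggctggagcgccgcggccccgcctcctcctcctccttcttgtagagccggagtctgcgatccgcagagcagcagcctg

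Over the 17 windows that RefSeq lists for the 9 isozymes, 5 held a match, in Hk1, Pfkm, Pkm and Ldha. Of all 32851 windows of this length 19.6% held one, and 4 of 9 isozymes compare with 21.8% of 27025 gene symbols. The 9 isozymes have 17 windows and the 27025 symbols 32851, so the isozymes have more windows per gene in which a match can fall. Hk1 and Pfkm rose and Pkm and Ldha fell, so genes with a match moved both ways. A match is a description of the letters, and windows of 1 gene can overlap.

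Ratios of the phosphofructokinase genes also differed over the stages. Pfkl to Pfkm was 1.72 in both E12.5 libraries, 1.34 and 1.30 at E14, 0.677 and 0.694 at E15.5, 0.738 and 0.644 at E17, and 0.551 and 0.448 at P0. It crossed 1 between E14 and E15.5 and was 3.47-fold lower at P0 than at E12.5 (exact permutation p = 0.00317, adjusted 0.00397). Pfkp to Pfkl was 0.0457 and 0.0326 at E12.5, 0.123 and 0.135 at E15.5, 0.643 and 0.361 at E17, and 0.769 and 0.695 at P0, an 18.9-fold rise (exact permutation p = 0.00106, adjusted 0.00265). Pfkp to Pfkm was 0.0787 and 0.0561 at E12.5, 0.0831 and 0.0935 at E15.5, 0.475 and 0.232 at E17, and 0.424 and 0.311 at P0. It was 5.46-fold higher at P0 than at E12.5 (exact permutation p = 0.0296, adjusted 0.0296), with E17 and P0 libraries that overlapped.

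**Figure D4:**
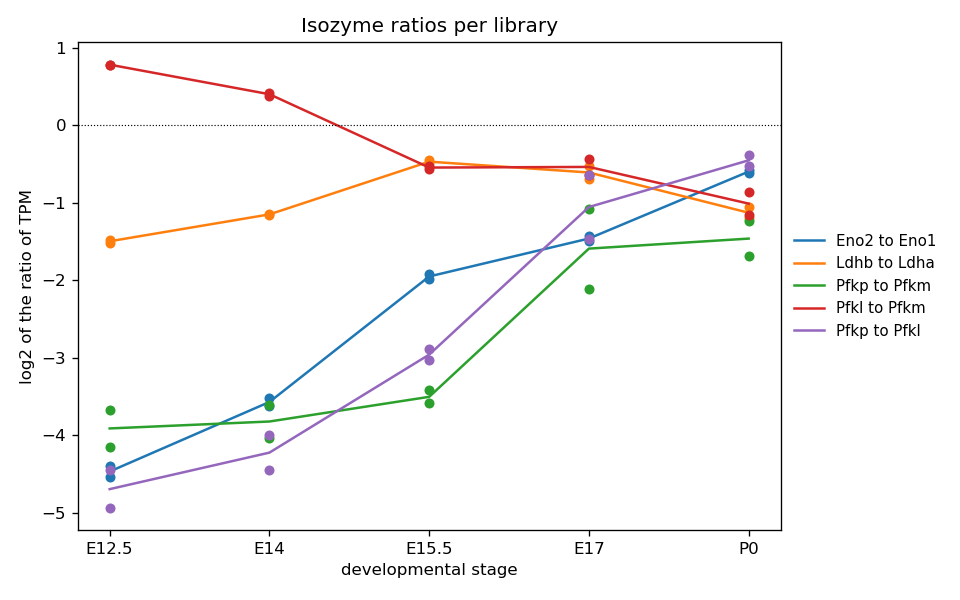
Log2 of the ratio of TPM of isozyme pairs (vertical axis) by stage; points are libraries and lines join the stage means (n = 2), and the dotted line marks equal levels. Eno2 to Eno1 and Pfkp to Pfkl rise over the whole period, Pfkl to Pfkm crosses 0 between E14 and E15.5, and Ldhb to Ldha peaks at E15.5.

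Step by step, the isozymes changed most often between E14 and E15.5. There 4 of 9 were called higher (18.4% of all genes) and 4 lower (33.3%), with Ldhb at 0.08 (adjusted p 0.408 in limma) the exception. The same step held the drop in erythroid, choroid plexus and meningeal markers. The rise of Pfkp at this step (0.61, adjusted p 0.0475) was the least certain. It lost its call in 12 of 22 alternatives, among them those without E12.5 replicate 1 (adjusted p 0.0633) or replicate 2 (0.0632), without E14 replicate 1 (0.207) or replicate 2 (0.0934), without E15.5 replicate 1 (0.104) or replicate 2 (0.188), and without P0 replicate 1 (0.0786) or replicate 2 (0.0785). The other 7 calls of this step held in all 22 alternatives.

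From E12.5 to E14 only Eno2 was called higher (0.47, adjusted p 0.0127 in limma), 1 of 9 where 3.95% of all genes were, and Eno1 (-0.40, adjusted p 0.0243) and Pkm (-0.38, adjusted p 0.0149) were called lower, where 4.78% of all genes were. The other 6 lay between -0.31 and 0.18. Each of these 3 calls was lost in several fits with 1 library left out, and every such fit leaves 1 library in a stage. The sign of the change held in all 22 alternatives. The change ran from 0.32 to 0.55 for Eno2, -0.51 to -0.28 for Eno1 and -0.45 to -0.31 for Pkm. Without E12.5 replicate 1 the adjusted p was 0.132 for Eno2, 0.0818 for Eno1 and 0.0758 for Pkm, and without E12.5 replicate 2 it was 0.101, 0.244 and 0.186. Without E14 replicate 1 it was 0.146 for Eno2 and 0.0577 for Pkm, and without E14 replicate 2 it was 0.0617 for Eno2, 0.247 for Eno1 and 0.169 for Pkm. Eno1 also lost its call without E15.5 replicate 1 or replicate 2 (0.0531 each). In contrast, Ldha and Pfkl were called lower at this step without E17 replicate 1 (0.00207 and 0.0484) or E17 replicate 2 (0.00209 and 0.0485), because all stages share 1 estimate of the spread. Ldhb turned from 0.04 to -0.02 without E14 replicate 1.

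From E15.5 to E17, 2 of 9 were called higher (14.4% of all genes), Hk1 (0.39, adjusted p 0.0202 in limma) and Pfkp. Lower were 3 of 9 (10.6% of all genes): Pkm (-0.48, adjusted p 0.00206), Ldhb (-0.38, adjusted p 0.00449) and Eno1 (-0.34, adjusted p 0.0231). The other 4 lay between -0.24 and 0.15. Without E15.5 replicate 1 the adjusted p rose to 0.165 for Hk1, 0.119 for Eno1 and 0.0568 for Ldhb, and without E15.5 replicate 2 to 0.0701 for Hk1 and 0.135 for Eno1. Ldha was called lower only without E17 replicate 2 (-0.36, adjusted p 0.00132).

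From E17 to P0, 3 of 9 were called higher (12.9% of all genes): Eno2, Hk1 (0.41, adjusted p 0.0086 in limma) and Ldha (0.28, adjusted p 0.0299). Lower were 3 of 9 (28.8%): Pkm (-0.29, adjusted p 0.0137), Ldhb (-0.24, adjusted p 0.0252) and Pfkl (-0.28, adjusted p 0.0411). The remaining 3, Pfkm, Pfkp and Eno1, lay between 0.07 and 0.29, and Pfkm was called higher under median-of-ratios scaling (0.29, adjusted p 0.0311). Without P0 replicate 2 the adjusted p was 0.0537 for Hk1, 0.0539 for Ldha, 0.058 for Pkm and 0.173 for Pfkl, and without P0 replicate 1 it was 0.148 for Ldha, 0.0941 for Ldhb and 0.0629 for Pfkl. Without E17 replicate 1 it was 0.116 for Ldha and 0.0935 for Pfkl. Without E15.5 replicate 1 or replicate 2 it was 0.0539 for Ldha, 0.0503 for Ldhb, and 0.07 for Pfkl. Pfkl further lost its call without E12.5 replicate 1 (0.0571), E12.5 replicate 2 (0.0573) and E14 replicate 1 (0.0504).

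The other enzymes of the pathway moved largely downward. Of 18 further glycolytic genes, 8 were in the table and 6 were tested. From E12.5 to P0, 5 of them were called lower and 0 higher (1 at an unadjusted p under 0.05 in limma, Bpgm), and their median was -1.16 where that of all genes was -0.27. Besides Hk2 these were phosphoglycerate kinase Pgk1 (-1.51, adjusted p 8.68e-09 in limma), triosephosphate isomerase Tpi1 (-1.23), the brain aldolase Aldoc (-1.09) and phosphoglycerate mutase Pgam1 (-0.94). Bpgm, which makes bisphosphoglycerate, was not called after adjustment (0.19, unadjusted p 0.0463, adjusted p 0.0587 in limma). From E15.5 to P0 Hk2 (-1.46, adjusted p 0.000274) and Pgk1 (-0.41, adjusted p 0.0102) were called lower, while Aldoc (-0.19), Tpi1 (-0.11) and Pgam1 (-0.03) were not and Bpgm was called higher (0.37, adjusted p 0.0219). Together with the 9 isozymes, 15 glycolytic genes were tested, and 4 were called higher and 10 lower over the whole period. Over the same period 27.1% of all genes tested were called higher and 51.0% lower.

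Of 12 regulators and transporters, 6 were in the table, and 2 were called higher and 3 lower from E12.5 to P0, with a median of -0.33. Among all genes tested 27.1% were called higher and 51.0% lower, with a median of -0.27. The glucose transporters moved apart. Slc2a1 (GLUT1), known from vessel endothelium and dividing cells, stood at 68.1 and 72.4 TPM at E12.5, 45.1 and 49.1 TPM at E14, 15.3 and 14.6 TPM at E15.5, 22.4 and 17.6 TPM at E17, and 7.62 and 6.26 TPM at P0 (-3.17, SE 0.13, adjusted p 9.19e-10 in limma). Slc2a3 (GLUT3), the main neuronal glucose transporter, was higher at P0 (0.72, SE 0.11, adjusted p 6.71e-05). Slc2a1 was high and then low in the same libraries as the erythroid, meningeal and vascular markers, whose part in its fall was not tested, and from E15.5 to P0 it changed by -1.01 (adjusted p 0.00115). The value of Slc2a3 from E15.5 to P0 was 0.26 (adjusted p 0.125). The lactate and pyruvate carrier Slc16a1 (MCT1) fell 4.23-fold (adjusted p 9.29e-09) and its chaperone Bsg fell by 0.43 on the log2 scale (adjusted p 0.00573). Pfkfb2, which makes the activator of phosphofructokinase, rose by 1.22 on that scale (adjusted p 1.41e-05), and Tigar, which breaks that activator down, was not called (-0.24, adjusted p 0.0621). From E15.5 to P0 neither Pfkfb2 (0.41, adjusted p 0.0852 in limma) nor Bsg (0.10, adjusted p 0.575) was called.

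At the entry of pyruvate to mitochondria, 10 of 14 genes were in the table, and 4 were called higher and 4 lower from E12.5 to P0 (median 0.05). The shares of all genes tested were 27.1% higher and 51.0% lower (median -0.27). Among genes of the pyruvate dehydrogenase complex Pdha1 (0.32) and Pdhx (0.31) were higher and Dld (-0.27) lower, and Pdhb (-0.03, adjusted p 0.702 in limma) and Dlat (0.13, adjusted p 0.209) were not called. The mitochondrial pyruvate carrier subunit Mpc2 was higher (0.76, adjusted p 7.34e-06). Of the listed kinases that switch the complex off, Pdk1 and Pdk3 were analysed and Pdk2 and Pdk4 were not. Pdk3 was lower with a change of -1.63 (adjusted p 3.45e-08 in limma) and Pdk1 with -0.51 (adjusted p 0.00012). Of the phosphatases that switch it on, Pdp1 was higher (1.07, adjusted p 2.61e-07) and Pdp2 lower (-0.70, adjusted p 0.000421). From E15.5 to P0, Pdk1 (-0.02), Pdk3 (-0.36, adjusted p 0.0548), Pdp1 (-0.00), Pdhx (0.33, adjusted p 0.066) and Dld (0.0848, adjusted p 0.566) were not called in limma, and Dlat was called higher (0.34, adjusted p 0.044).

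**Figure D5:**
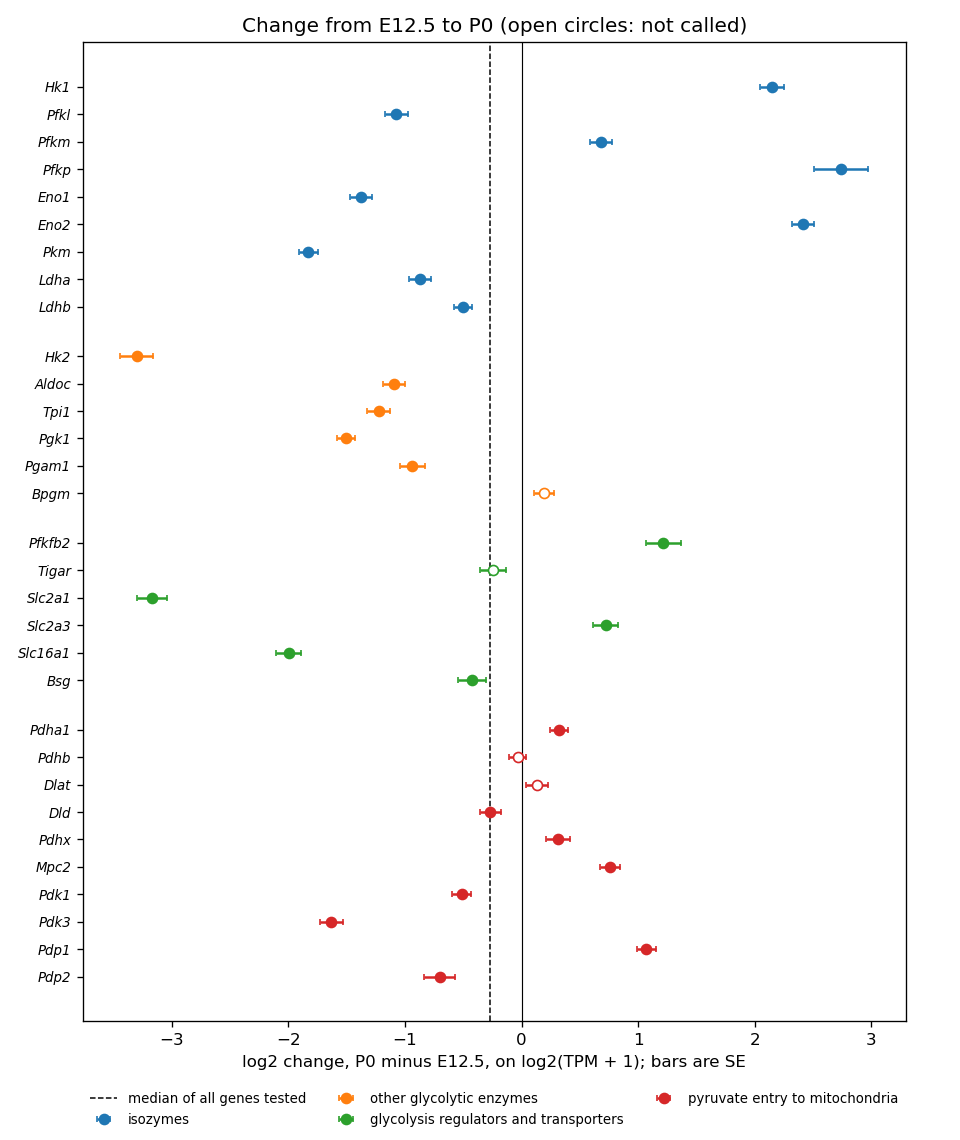
Change from E12.5 to P0 on log2(TPM + 1) (horizontal axis; bars are SE) of the isozymes and of 3 lists of neighbouring genes; filled circles were called in limma and the dashed line is the median of all genes tested (-0.27). The isozymes span -1.83 to 2.74, and among the other glycolytic enzymes the 5 called genes all lie to the left.

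Further lists around the pathway were counted in the same way. From E12.5 to P0, 27.1% of all genes tested were called higher, and the median of all genes was -0.27. Of the pentose phosphate pathway, which makes NADPH and ribose, 7 of 8 genes were in the table and 5 were called lower in limma from E12.5 to P0 and 0 higher (1 at an unadjusted p under 0.05), with a median of -0.73, where 51.0% of all genes were called lower. The called genes ran from Taldo1 (-0.53) to Rpe (-1.27), and the other 2 were G6pdx (0.12) and Pgls (0.27). Of the citrate cycle and the malate-aspartate shuttle 17 of 18 were in the table, with 3 called higher and 6 lower (median -0.04), the ends being the aspartate-glutamate carrier Slc25a12 (1.07) and the succinate-CoA ligase subunit Suclg2 (-2.53). Of the glycogen and glycerol side branches 8 of 10 were in the table, with 4 higher and 4 lower (median -0.05), from Gpd1l (1.84) to glycogen synthase Gys1 (-1.24). Of 15 hypoxia response genes outside glycolysis 4 were in the table, with 1 higher (Ndrg1, 2.35) and 2 lower (P4ha1 lowest, -1.17), and a median of -0.55. Ndrg1 was -0.16 from E15.5 to P0 (adjusted p 0.223 in limma).

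The genes most like each isozyme over the 10 libraries were sought by Pearson's r on log2(TPM + 1), among 5421 genes whose mean reached 10 TPM. These correlations describe 10 libraries that share 5 stages, so most follow age. Closest were Gprin1 to Hk1 (r = 0.997), Syt7 to Pfkp (0.993), Cstf1 to Pfkl (0.994), Aldh1b1 to Pfkm (0.985), Tuba1b to Eno1 (0.998), Gap43 to Eno2 (0.996), Nmral1 to Pkm (0.999), Prdx1 to Ldha (0.991) and Ftsj1 to Ldhb (0.974). By rank correlation other genes came first for each isozyme. Among the isozymes themselves Pkm and Eno1 ran together (r = 0.971), as did Eno1 and Ldha (0.975), Hk1 and Eno2 ran together (0.966), and Ldha and Ldhb had an r of 0.475.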

How the data were processed

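The deposited values are TPM per gene, 1 column per library, per the file headers. STAR, Subread and the build GRCm38.p5 are named in the submitters' processing notes. Not given in the sources used here are their versions, the annotation, the gene lengths, the strand setting of the counting and the reason for the choice of the 6147 rows. TPM carry no depth, so no count model or counting interval was used, and the depth of the libraries is unknown. TPM are shares of a total, so a change in abundant genes moves all others. The listed genes held 68.9% to 71.7% of all TPM.

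Columns were assigned to libraries by their names, and 0 columns of values stayed unused. A filter took out 99 genes whose mean was below 1 TPM, and the rest were put on the log2(TPM + 1) scale. They were fitted in limma 3.58.1 (R 4.3.3) with a mean for every stage, all 10 libraries together (5 residual degrees of freedom), variance moderated with a trend on the mean, and p-values adjusted by the Benjamini-Hochberg method over the 6048 genes. A change on this scale understates that of genes with low values. With 2 libraries a stage, precision rests on the shared spread. A fold is the ratio of mean TPM. Ratios were tested without a pseudocount by an exact permutation test, two-sided by its F statistic. No batch, litter or sex is labelled. The scripts were checked on simulated data.

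The members and gene lists (8 of pathways, 11 of markers) were chosen with earlier results of these data known. All members were to be named with every library, their changes where called or where a call turned, and of each pathway list the called genes with the highest and lowest change. The lists for other glycolytic enzymes, regulators and transporters, pyruvate entry and Pkm splicing were named in full where tested. Marker sums not described elsewhere were, at E12.5 and P0, 2156 and 1657 TPM for radial glia (7 of 9 genes), 265 and 37.4 TPM for intermediate progenitors (2 of 4), 454 and 502 TPM for astrocytes (6 of 8, with Aldoc also among the glycolytic genes) and 8.09 and 7.44 TPM for microglia (1 of 8). Sums can hide changes of single genes. Between these stages 5 of the 7 radial glia genes were called lower in limma and 2 higher (median -2.78). Fabp7 rose from 731 to 1406 TPM. Of the 6 astrocyte genes, 5 were called higher and 1, Aldoc, lower (median 2.22). Of all genes tested, 27.1% were called higher and 51.0% lower. No gene of the oligodendrocyte list (0 of 6) was in the table.

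Positions came from GENCODE M21 (GRCm38), chosen here, and start regions from RefSeq (GRCm38.p6). Tables used pandas 2.3.3 and numpy 2.4.6 under Python 3.11.15, and figures matplotlib 3.10.9. The alternatives tried were a pseudocount of 0.1 TPM or of 10 TPM, a filter at a mean of 5 TPM or none, median-of-ratios scaling, quantile normalization, no variance trend, robust moderation, array weights, an adjusted p under 0.01, only the 4 libraries of a comparison, a replicate block, each library left out in turn, and, chosen after seeing the data, E15.5 as the first stage.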

Additional observations from a re-analysis of the deposited data

How the results depend on the processing

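The direction and call of all 9 isozymes from E12.5 to P0 held in 22 alternatives that kept both stages, and the changes ranged from 1.40 to 3.12 for Pfkp, 1.74 to 2.41 for Hk1, 1.92 to 2.68 for Eno2, -1.90 to -1.55 for Pkm and -0.53 to -0.23 for Ldhb. With E15.5 as the first stage the value of Ldha turned to 0.0415, and those of Bsg (0.10), Pdhb (0.14), Dld (0.0848), Pdp1 (-0.0042) and Ndrg1 (-0.16) turned too. Median-of-ratios scaling, which moved the median change of all genes from -0.27 to -0.01, turned Tigar (0.0261), Pdhb (0.24) and Dld (0.0048), and quantile normalization turned Pdhb (0.0809). With 1 library left out Pdhb ran from -0.0765 to 0.0112. Leaving out E14 replicate 1 turned Ldhb from E12.5 to E14 (-0.0241), and Pfkp from E17 to P0 ran from -0.17 without E17 replicate 2 to 0.75 without E17 replicate 1. The causes were not tested.

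Counts of calls between neighbouring stages were less stable. From E12.5 to E14, where 1 isozyme was called higher and 2 lower, the lower count was 1 under median-of-ratios scaling, 4 with array weights and 4 with only 4 libraries in the fit, an adjusted p under 0.01 left 0 higher and 0 lower, and with 1 library left out the counts ran from 0 to 1 and from 0 to 4. From E15.5 to E17 the higher count of 2 became 1 with array weights, 1 at an adjusted p under 0.01 and 0 with only 4 libraries, which also left 0 of 3 lower. With 1 library left out these counts ran from 1 to 2 and from 1 to 4. From E17 to P0 the higher count of 3 became 4 under median-of-ratios scaling, 2 under quantile normalization, 2 at an adjusted p under 0.01, 1 with array weights and 1 with only 4 libraries, and the lower count of 3 became 0 under median-of-ratios scaling, array weights, an adjusted p under 0.01 and only 4 libraries. With 1 library left out both ran from 1 to 3.

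The replicate numbers in the titles are not stated to pair the libraries. Deviations of the replicates from the stage means correlated between -0.375 and 0.107 over 10 pairs of stages, with 1 above 0.1. Whether libraries were paired or shared a batch cannot be told from these values, since numbers could be swapped between stages. With the replicate number as a block the ratio of Pfkp to Pfkm kept its value of 2.45 with an adjusted p of 0.0583 in the exact permutation test, and Pfkl lost its call from E17 to P0 (adjusted p 0.051 in limma).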

Other observations

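Genes of the citrate cycle, of pyruvate entry and of the glycogen and glycerol branches were counted from E14 to E15.5 and at the last step. Of 17 tested genes of the citrate cycle and the malate-aspartate shuttle, 6 were called higher and 1 lower in limma from E17 to P0 (median 0.17), against 2 higher and 2 lower from E14 to E15.5 (median -0.10). Of 10 tested genes of pyruvate entry to mitochondria, 4 were called higher and 1 lower from E17 to P0 (median 0.22), against 2 higher and 1 lower from E14 to E15.5 (median -0.07). Of 8 tested genes of the glycogen and glycerol branches, 4 were called higher and 1 lower from E17 to P0 (median 0.26), against 1 higher and 4 lower from E14 to E15.5 (median -0.24). From E14 to E15.5 18.4% of all genes tested were called higher and 33.3% lower, and the median of all genes was -0.13. From E17 to P0 12.9% of all genes tested were called higher and 28.8% lower, and the median of all genes was -0.10. Hk1, Eno2 and Ldha were called higher at the same step. These counts are descriptions of the lists, and whether the lists differ from other genes was not tested.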
